A study of Mus musculus with 6 samples.

Results

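EphB receptors and ephrin-B ligands form a signalling system in which both partners are membrane proteins, and the 8 genes of the mouse system (Ephb1, Ephb2, Ephb3, Ephb4, Ephb6, Efnb1, Efnb2 and Efnb3) were followed in oligodendrocyte precursor cells (OPC). They were chosen by gene name, as every array probe whose symbol equals one of the 8 (of 30869 symbols on the array), which gave 14 of 45281 probes, 11 for the receptors and 3 for the ligands. The samples were primary OPC cultures of C57BL/6 mouse pups aged 6 to 8 days, 3 from spinal cord and 3 from cerebrum, all kept proliferating for 7 days in vitro with 10 ng/ml PDGF-AA and measured on Illumina bead arrays. Spinal cord and cerebrum cultures with the same number came from 1 preparation, a pool of 3 to 4 pups, so each of the 3 preparations gave 1 sample of either tissue. The series was made to find genes that differ between the tissues and bear on OPC migration.

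Eph receptors are receptor tyrosine kinases that bind ephrins on the surface of a neighbouring cell. Ephrin-B ligands span the membrane and signal back into the cell that carries them, so a contact produces forward signals through the receptor and reverse signals through the ligand, which often end in repulsion or in a change of adhesion. In the nervous system the family guides axons and migrating cells, and in the mouse ephrin-B3 on myelin is known as an inhibitor of axon growth.

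In the fit on tissue alone, no EphB receptor or ephrin-B ligand differed between spinal cord and cerebrum OPC at an adjusted p under 0.05 (limma, Benjamini-Hochberg over 20988 tested probes). The count was 0 of 12 tested member probes, against 2.31% of all tested probes. The lowest adjusted p values belonged to the ligand Efnb1 and the receptor Ephb1, both with lower values in spinal cord OPC, by log2 fold changes of -0.34 ± 0.11 and -0.38 ± 0.15 (SE, n = 3 each). With the preparation as a block in the fit, which compares the tissues within preparations, Efnb1 passed (adjusted p = 0.0441), which made 1 of 12 member probes against 5.09% of all tested probes. Without the adjustment the p-value was under 0.05 in 2 of the 12 probes, 16.7%, against 9.69% of all tested probes.

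The sequences just upstream of Ephb1 and Efnb1 are shown because these are the member genes with the lowest adjusted p. Each line gives the 250 bases before the RefSeq transcript start in GRCm38.p6, chr9:102354694-102354943 on the minus strand for Ephb1 and chrX:99135811-99136060 on the plus strand for Efnb1, 5′ to 3′ on the gene's strand, with the reverse complement of the CCAAT box, ATTGG, in capitals.
Ephb1: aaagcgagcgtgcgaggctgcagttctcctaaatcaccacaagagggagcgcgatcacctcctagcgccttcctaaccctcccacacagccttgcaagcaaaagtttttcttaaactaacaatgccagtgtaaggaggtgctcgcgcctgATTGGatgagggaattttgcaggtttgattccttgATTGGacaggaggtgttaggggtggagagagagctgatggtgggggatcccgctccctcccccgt
Efnb1: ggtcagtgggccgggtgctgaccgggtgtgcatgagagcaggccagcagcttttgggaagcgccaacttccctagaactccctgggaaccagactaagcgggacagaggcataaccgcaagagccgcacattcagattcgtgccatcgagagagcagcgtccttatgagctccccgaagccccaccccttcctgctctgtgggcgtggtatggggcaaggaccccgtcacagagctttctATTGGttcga
The capitals begin at -100 and -65 from the start of Ephb1 and at -10 from that of Efnb1. CCAAT in either orientation was found in 5 of the 7 member genes with a promoter sequence at hand (Ephb1, Ephb2, Ephb4, Efnb1 and Efnb2), against 33.8% of all 32851 windows of this length. The GC box GGGCGG was found in 4 of 7 (Ephb3, Ephb4, Ephb6 and Efnb2), against 32.7%, and in neither of the sequences shown. Of 5 further motifs, all read on both strands, ACAAT, the core letters of Sox binding sites, was found in 1 of 7 (Ephb1, against 27.7%), TATAAA in 1 (Efnb2, 12.4%) and CAGCTG in 1 (Ephb3, 13.0%), while CACGTG (6.02%) and TAATTA (4.84%) were found in 0. A match of letters is a description of the sequence and not a binding site.

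The labelled cell type was checked against its markers. All 14 OPC markers on the list lay above the background floor, the 95th percentile of 1302 olfactory receptor probes of the same array, on at least 3 arrays. The log2 intensity of Pdgfra, which encodes the PDGF-AA receptor, was 13.44, 13.35 and 13.30 in spinal cord OPC and 13.68, 13.60 and 13.39 in cerebrum OPC, and Sox10 and Olig2, transcription factors of the lineage, had log2 fold changes of 0.11 and -0.03 that did not pass, as did the NG2 proteoglycan gene Cspg4 with 0.01. Of the OPC list 0 rose and 2 fell in spinal cord OPC, the receptor gene Gpr17 (log2 fold change -1.37 ± 0.23, SE) and Sox5 (-0.57 ± 0.11). Summed over its genes the OPC list had an intensity of 71113 to 77319.6 in spinal cord OPC and 77614 to 87315 in cerebrum OPC. The 3 astrocyte markers Gfap, Gja1 and Fgfr3 lay below the floor on every array, while Sox9, which glial precursors also express, fell (-1.25 ± 0.18, SE) and the list's sum was 21299 to 23059 in spinal cord and 23366 to 31021 in cerebrum OPC. Of the 6 tested astrocyte markers 4 had positive and 2 negative log2 fold changes, with a median of 0.14 and a highest value of 0.33. The sum of 10 neuron markers was 9774 to 11574 in spinal cord and 8617 to 9354 in cerebrum OPC. Snap25, Stmn2, Nefl and Slc17a6 lay below the floor on every array, and 0 of 5 tested neuron markers passed the threshold. Of these 5 markers 5 had positive and 0 negative log2 fold changes, with a median of 0.20 and a highest value of 0.48. The OPC, astrocyte and neuron sums did not overlap between the tissues, and their part in the values below was not tested. Of 10 myelin genes 5 were tested and Mbp rose (1.04 ± 0.11, SE). Of these 5 genes 4 had positive and 1 a negative log2 fold change, from -1.23 to 1.04, and 0 fell past the threshold. The list had sums of 10594 to 13010.2 in spinal cord and 9986 to 12903 in cerebrum OPC. Of 11 microglial markers 7 lay below the floor on every array, as did 3 of 6 mural, 5 of 8 meningeal, 2 of 7 Schwann cell and 2 of 5 ependymal markers, and 0 genes of these lists passed. With the preparation as a block 0 OPC markers rose and 3 fell, 3 myelin genes rose and 1 fell, 1 astrocyte marker rose and 1 fell, 1 neuron marker rose and 1 meningeal marker (Prrx1, adjusted p = 0.00372, limma) fell. In such bulk samples fewer cells of a type and less RNA per cell cannot be told apart.

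Efnb1, on the X chromosome, encodes ephrin-B1, a ligand of EphB receptors. Its probe (ILMN_2698443) had log2 intensities of 7.49, 7.38 and 7.36 in spinal cord replicates 1 to 3, against 7.86, 7.83 and 7.57 in cerebrum replicates 1 to 3. All spinal cord samples lay below all cerebrum samples, as in 6.95% of all tested probes and in 1 of the 12 tested member probes, and cerebrum replicate 3 was the cerebrum sample nearest to the spinal cord samples. The means were 7.41 ± 0.07 in spinal cord and 7.75 ± 0.16 in cerebrum OPC (SD, n = 3 each), and the ratio of spinal cord to cerebrum intensity was 0.79 (95% confidence interval 0.667 to 0.935). The adjusted p was 0.220 in the fit without the block and 0.0441 with it (limma). Within preparations 1, 2 and 3 the difference, spinal cord minus cerebrum, was -0.37, -0.45 and -0.20. Efnb1 also passed when cerebrum replicate 3 was left out (log2 fold change -0.43, adjusted p = 0.0233, limma). It passed as well when arrays were weighted by their fit (-0.41, adjusted p = 0.00584). Of the 20988 tested probes 899 and 1615 passed in these settings, against 484 in the reported fit. Over all alternatives the adjusted p of Efnb1 ran up to 0.606.

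Ephb1 encodes a receptor for ephrin-B ligands. Its brighter probe (ILMN_2672903) had log2 intensities of 8.09, 7.64 and 7.88 in spinal cord replicates 1 to 3, against 8.45, 8.36 and 7.94 in cerebrum replicates 1 to 3. Spinal cord replicate 1 lay above cerebrum replicate 3, so the tissues overlapped, although the spinal cord sample was the lower within each preparation (differences of -0.36, -0.72 and -0.06). Values lower in spinal cord in all 3 preparations were found for 2 of the 12 tested member probes, 16.7%, against 17.9% of all tested probes. The means were 7.87 ± 0.22 in spinal cord and 8.25 ± 0.27 in cerebrum OPC (SD, n = 3 each), a ratio of 0.769 (95% confidence interval 0.611 to 0.967) with an adjusted p of 0.383 (limma), and 0.0616 with the preparation as a block. Without cerebrum replicate 3 the log2 fold change was -0.54 and the adjusted p 0.0176 (limma), and with array weights -0.51 and 0.00708. These settings called 899 and 1615 of all tested probes, against 484 in the reported fit. Over all alternatives the adjusted p of this Ephb1 probe ran up to 0.838. The other Ephb1 probe (ILMN_2559390) lay below the floor on all 6 arrays, at 5.68 to 5.83 in spinal cord and 5.81 to 5.91 in cerebrum OPC. A further probe with the symbol C130099E04Rik, now a synonym of Ephb1, falls outside the choice by symbol and did not repeat the direction, with 6.14, 6.21 and 6.17 in spinal cord against 5.94, 6.15 and 6.17 in cerebrum OPC (log2 fold change 0.09 ± 0.09, SE, adjusted p = 0.904, limma). This probe lay near the floor, above it on 3 spinal cord and 2 cerebrum arrays, so it says little about the direction of Ephb1.

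**Figure D1:**
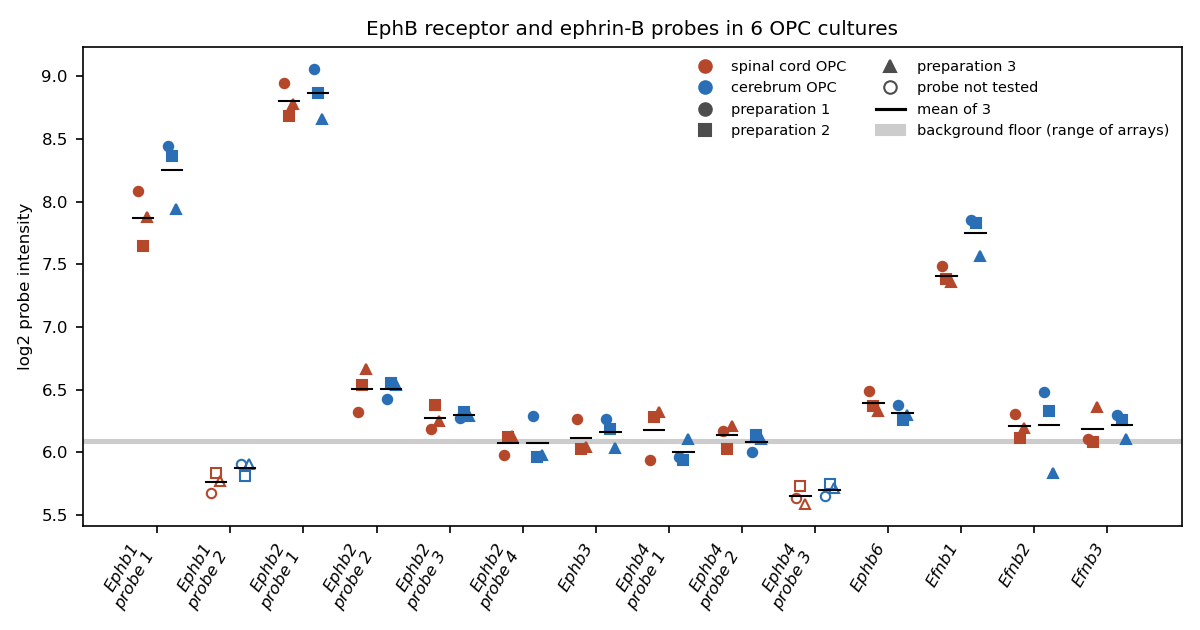
Log2 probe intensity of the 14 probes in each of the 6 OPC cultures, spinal cord (red, left of each pair) and cerebrum (blue, right), with symbols for the preparation, bars for the mean of 3 and a grey band for the range of the background floor. The Ephb1, Ephb2 and Efnb1 probes at the top stand well above the band, the remaining probes lie near or below it, and Efnb1 shows no overlap between the tissues.

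Ephb2 encodes a receptor with roles in axon guidance and synapse formation, and it was read by 4 probes that differed in brightness. The brightest (ILMN_2622255) had log2 intensities of 8.95, 8.68 and 8.78 in spinal cord replicates 1 to 3, against 9.06, 8.87 and 8.66 in cerebrum replicates 1 to 3. The tissues overlapped, and preparation 3 ran the other way from preparations 1 and 2 (0.12 against -0.11 and -0.19). The log2 fold change was -0.06 ± 0.13 (SE, adjusted p = 0.974, limma) with a 95% confidence interval of -0.34 to 0.22. The other 3 probes (ILMN_1240431, ILMN_1220911 and ILMN_2688515) had log2 intensities of 5.98 to 6.66 in spinal cord and 5.96 to 6.55 in cerebrum OPC, with log2 fold changes of 0.00, -0.02 and 0.00 in that order. The array's table gives the brightest Ephb2 probe no transcript definition, as for 5 of the 14 member probes, and which transcript those 5 read was not checked here. Over the 6 arrays the brightest Ephb2 probe correlated with the second brightest at -0.62 and with the remaining pair at -0.49 and 0.39, a description of probes of 1 gene.

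Ephb3, Ephb4 and Ephb6 were near the floor. Ephb3, a receptor that acts with Ephb2 in the formation of commissures in the mouse, had 6.27, 6.03 and 6.04 in spinal cord against 6.27, 6.18 and 6.04 in cerebrum OPC. In both tissues replicate 1 was the highest, and only 1 spinal cord and 2 cerebrum samples were above the floor (log2 fold change -0.05 ± 0.10, SE, adjusted p = 0.973, limma). Ephb4, the receptor of venous endothelium that binds ephrin-B2, had 5.94, 6.28 and 6.32 in spinal cord against 5.96, 5.94 and 6.10 in cerebrum OPC with the probe that carries a transcript definition (ILMN_2973206), a difference of 0.18 ± 0.11 (log2, SE, adjusted p = 0.706, limma). Spinal cord replicates 2 and 3 lay above all cerebrum samples and replicate 1 at the level of the lowest of them. Its second tested probe (ILMN_2777884) had 6.17, 6.03 and 6.21 in spinal cord against 6.00, 6.13 and 6.11 in cerebrum OPC (0.05 ± 0.09, log2, SE, adjusted p = 0.959, limma), and the third (ILMN_1230479) was below the floor on all 6 arrays, at 5.59 to 5.73 in spinal cord and 5.65 to 5.74 in cerebrum OPC. Ephb6, whose kinase domain lacks catalytic activity, had 6.49, 6.37 and 6.33 in spinal cord against 6.37, 6.26 and 6.30 in cerebrum OPC. Ephb6 was higher in spinal cord within preparations 1, 2 and 3, by 0.11, 0.11 and 0.03, and the share of all tested probes with this pattern was not counted. Its log2 fold change was 0.08 ± 0.09 (SE), with an adjusted p of 0.910 (limma).

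The other ligands were also dim. Efnb2 encodes ephrin-B2, the ligand of arterial endothelium and a guidance cue in the neural tube. It had 6.30, 6.12 and 6.20 in spinal cord replicates 1 to 3 against 6.48, 6.33 and 5.83 in cerebrum replicates 1 to 3. Cerebrum replicates 1 and 2 lay above all spinal cord samples and cerebrum replicate 3 below all of them and below the floor, so the mean difference was -0.01 ± 0.14 (SE, adjusted p = 0.997, limma). Without cerebrum replicate 3 it was -0.20, the lowest of the fits without 1 array, and without cerebrum replicate 1 it was 0.12. Efnb3 encodes ephrin-B3 and had 6.11, 6.08 and 6.36 in spinal cord against 6.30, 6.25 and 6.11 in cerebrum OPC. Here too preparation 3 differed in sign from the others, with 0.26 against -0.19 and -0.17 (log2 fold change -0.04 ± 0.10, SE, adjusted p = 0.981, limma). Endothelial cells also express Efnb2 and Ephb4, and the part of such cells in these values was not tested. Of 10 endothelial markers 3 were above the floor on at least 3 arrays and 7 lay below it on every array, Pecam1 among them, Cdh5 was above it on 1 spinal cord and 2 cerebrum arrays and Kdr on 2 and 3, and the summed intensity was 585 to 590.3 in spinal cord and 586 to 614 in cerebrum OPC.

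**Figure D2:**
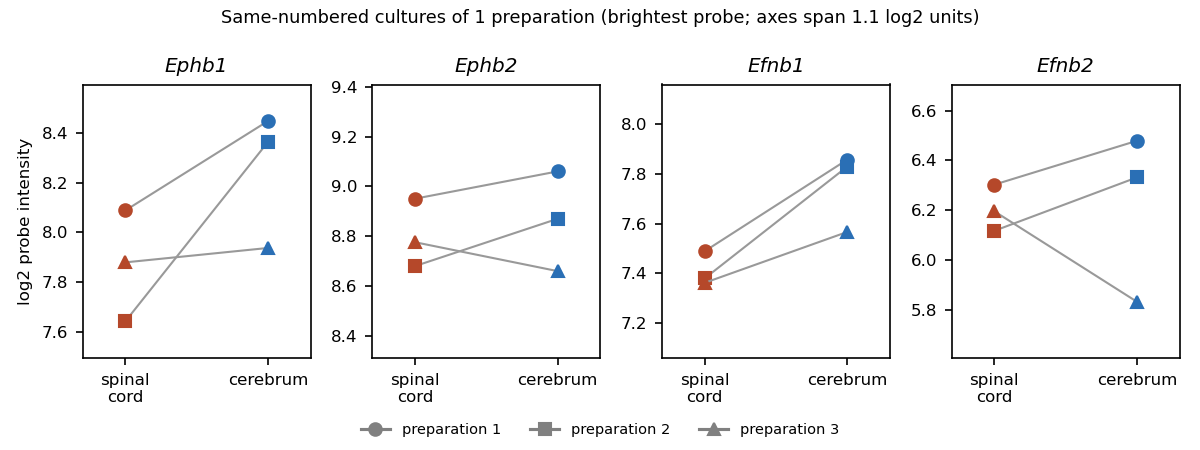
Log2 intensity of the brightest probe of Ephb1, Ephb2, Efnb1 and Efnb2, with lines joining the spinal cord and cerebrum culture of 1 preparation and axes of equal span. Ephb1 and Efnb1 are lower in spinal cord in all 3 preparations, and in Ephb2 and Efnb2 preparation 3 runs opposite to preparations 1 and 2.

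Cerebrum replicate 3 was the lowest of the cerebrum samples in 6 of the 12 tested member probes, against 41.2% of all tested probes. It stood apart from the other arrays over all probes too, at -25.2 on a second principal component (32.7% of the variance) on which the other 5 arrays lay between -8.39 and 18.2. For the 10 tested member probes other than those of Ephb1 and Efnb1, the log2 fold changes ran from -0.06 to 0.18, and their 95% confidence intervals lay between -0.34 and 0.41, or 0.79-fold to 1.33-fold. These limits are those of probe intensities that still hold background. With the median of the olfactory receptor probes subtracted and 16 added before taking log2, the intervals of the same 10 probes lay between -0.60 and 0.88. Of the 12 probes 7 were above the floor on all 6 arrays. Only the tested Ephb1 probe, the Efnb1 probe and the brightest Ephb2 probe stood well above it, so for the others a lack of difference says little. Levels of different probes were not set against each other.

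**Figure D3:**
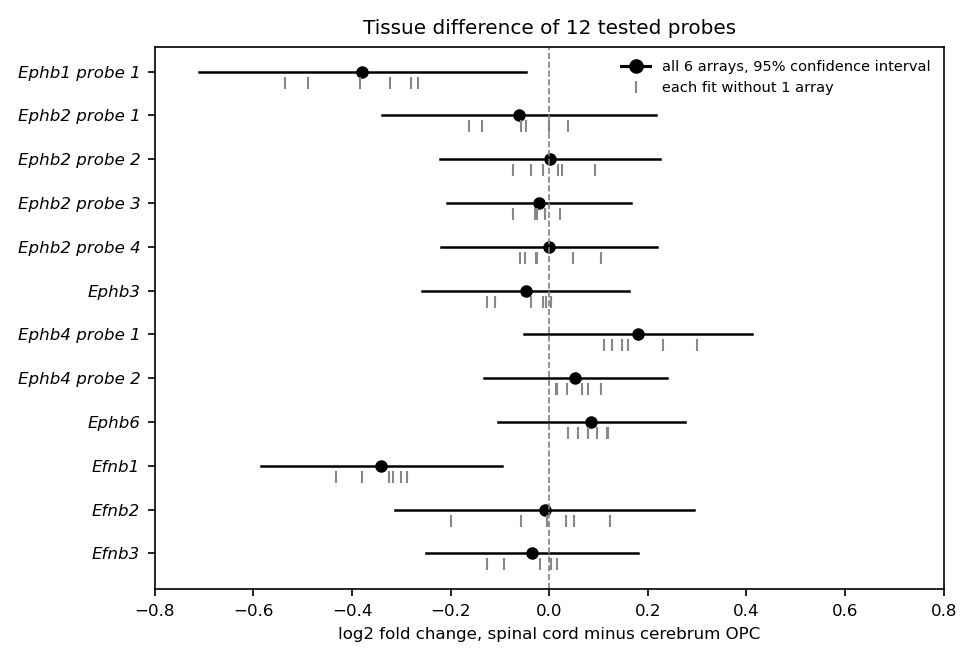
Log2 fold change, spinal cord minus cerebrum OPC, of the 12 tested probes with 95% confidence intervals (dots and lines), and the values of the 6 fits without 1 array (grey ticks). All intervals are those of the fit without the block. The intervals of Ephb1 and Efnb1 lie below 0 before adjustment over all probes, and the other 10 include 0.

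By Pearson's r over the 6 arrays, the genes most like Efnb1 included Tab3 (r = 0.993), an adaptor of the kinase TAK1, and the transcription factor gene Bach2 (0.992). Their log2 fold changes were -0.29 and -0.78, and Bach2 fell (adjusted p = 0.0225, limma). These correlations were picked as among the highest of 11226 genes over 6 arrays and are a description.

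Among the EphA receptors and ephrin-A ligands, the sister system whose ligands are anchored in the membrane by a lipid, 8 of 14 genes were tested, and of these 2 rose and 0 fell in spinal cord OPC. Epha7, 1 of the 2, was above the floor on 3 spinal cord and 0 cerebrum arrays. No difference between the families is read from this count. Of the 8 tested EphB and ephrin-B genes the counts were 0 and 0. Of all tested genes 2.95% passed, 1.87% that rose and 1.08% that fell. With the preparation as a block 1 of the 8 EphB and ephrin-B genes passed, Efnb1, which fell. The count for EphA and ephrin-A genes was then 2 of 8, and 6.33% of all tested genes passed. The difference between the families was not tested. Efna5, the ligand ephrin-A5, which also binds EphB2, had 8.55, 8.42 and 8.16 in spinal cord replicates 1 to 3 against 7.16, 6.89 and 6.67 in cerebrum replicates 1 to 3, and rose by 1.47 ± 0.14 (log2, SE, adjusted p = 5.59e-05, limma), while its second probe was below the floor on every array. Epha7 was below the floor on all cerebrum arrays (5.90, 5.85 and 5.62) and at 6.30, 6.30 and 6.38 in spinal cord OPC, at least 1.18-fold higher (adjusted p = 0.00535, limma), with its 3 other probes below the floor. It entered the test only through the spinal cord arrays, where it is high. Epha4, a receptor that binds ephrin-B ligands as well, had a difference of -0.18 ± 0.10 (log2, SE, adjusted p = 0.631, limma).

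Genes that act with EphB receptors and ephrin-B ligands were followed in 3 lists drawn from general knowledge of the pathway. Of 40 tested genes of forward signalling, the kinases, adaptors and other proteins downstream of the receptor, 1 rose and 0 fell (4 and 3 with the preparation as a block), with a median log2 fold change of -0.01 against 0.00 over all tested genes. Grb10, an adaptor protein that binds receptor tyrosine kinases, rose by 0.87 ± 0.14 (log2, SE, adjusted p = 0.00453, limma), with 8.86, 8.85 and 8.62 in spinal cord against 8.22, 7.80 and 7.70 in cerebrum OPC, while a dimmer probe had 0.04 (adjusted p = 0.971). Limk1, a kinase of the actin regulator cofilin, differed by 0.70 ± 0.19 (log2, SE, adjusted p = 0.108, and 0.000728 with the block), and Fyn, a Src family kinase on both signalling lists, -0.34 ± 0.10 (0.171, and 0.0397 with the block). Of 16 tested genes of reverse signalling 1 rose and 0 fell (2 and 1 with the block), with a median of 0.01. Pdzrn3, a ubiquitin ligase with PDZ domains, rose by 1.33 ± 0.13 (log2, SE, adjusted p = 5.75e-05, limma), with 8.75, 8.55 and 8.39 in spinal cord against 7.19, 7.08 and 7.43 in cerebrum OPC, and its 2 other probes were not tested. Of 16 tested genes of receptor and ligand turnover, which holds proteases, phosphatases and gamma-secretase subunits, 1 rose and 1 fell (1 and 2 with the block), with a median of 0.02. The metalloproteinase gene Mmp2 rose by 0.84 ± 0.13 (log2, SE, adjusted p = 0.00315, limma), with 7.59, 7.77 and 7.66 in spinal cord against 6.73, 7.14 and 6.63 in cerebrum OPC. The membrane kinase gene Lmtk2 fell by 0.92 ± 0.15 (log2, SE, adjusted p = 0.00377, limma), with 10.78, 10.91 and 10.69 in spinal cord against 11.92, 11.87 and 11.34 in cerebrum OPC, and its dimmer probe had -0.45 (adjusted p = 0.109, and 0.0137 with the block). Over the 77 tested genes of the EphA, ephrin-A and 3 signalling lists 5 rose and 1 fell, 7.79% in all, against 2.95% of all tested genes, and with the block the counts were 9 and 5, against 6.33% of all tested genes. The lists were chosen with earlier results of these data known, and Epha7 entered the test only through the spinal cord arrays. Nothing about the pathway is therefore read from these shares.

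**Figure D4:**
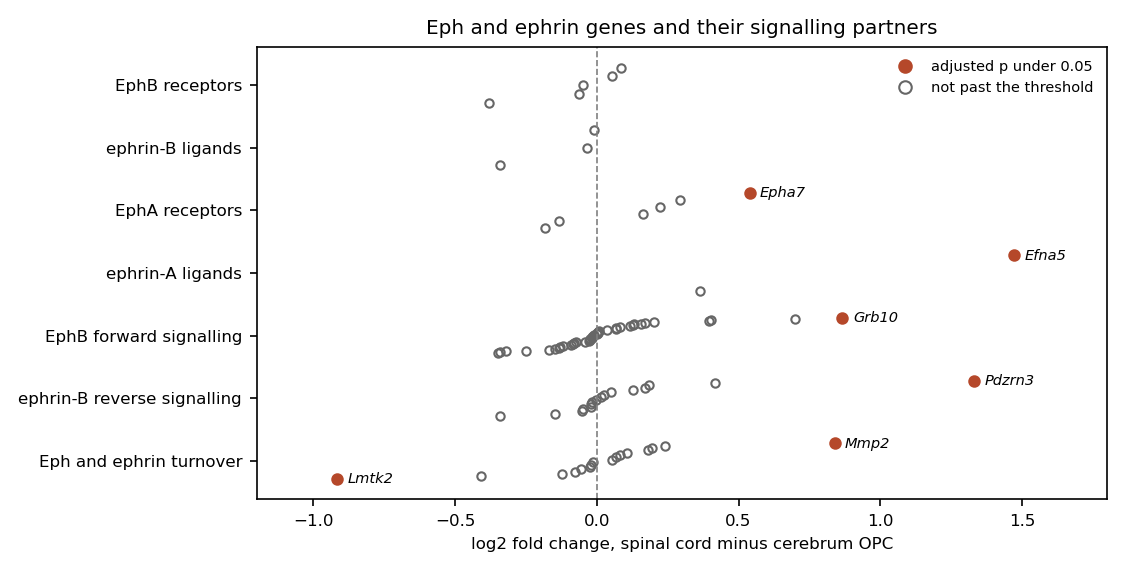
Log2 fold change, spinal cord minus cerebrum OPC, of every tested gene (its brightest tested probe) on 7 lists, with genes past an adjusted p of 0.05 filled and named and the rest as open circles. Calls are those of the fit without the block, in which no EphB or ephrin-B gene is filled. With the block Efnb1 passes (adjusted p = 0.0441, limma). The 6 filled genes are Epha7, Efna5, Grb10, Pdzrn3 and Mmp2 on the positive side and Lmtk2 on the negative side.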

How the data were processed

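Total RNA of 6 cultures was labelled as biotinylated cRNA for Illumina arrays, per the labels' protocols. The deposited values are linear probe intensities of the authors' value table, nearly equal in distribution on all arrays (median 64.5). The submitters' processing notes name GenomeStudio 2011.1, while the normalisation and any background removal are not given in the sources used here. Olfactory receptor probes had a median of 52.3 to 53.0, so background remained and folds of dim probes are understated. Gene symbols came from a second deposited table, whose 12 sample columns match no sample's labels and were not used.

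Probes above the floor (67.2 to 68.6 per array) on at least 3 arrays entered the test. Their log2 intensities were fitted with limma 3.58.1 in R 4.3.3 (lmFit, eBayes with trend) for the difference of spinal cord over cerebrum. P-values were adjusted by Benjamini and Hochberg over 20988 probes, at a threshold of 0.05. The fit was tested on simulated data with independent arrays and no preparation effect, so that test says nothing about the pairing. Listed genes were represented by their brightest tested probe. Replicate numbers mark a shared preparation per the labels' design text, and the residuals of the samples of each preparation correlated at 0.53, 0.21 and 0.50, so they were taken as pairs. The reported fit, its confidence intervals and the calls in the figures have no block and so do not use this pairing. The blocked count or value is given beside the calls of members and lists that it changes. RefSeq's tables for GRCm38.p6 gave current symbols and promoters (7 of 8 members).

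Named were all members, called pathway genes (up to 6 per list), fixed OPC and endothelial markers, up to 2 called genes per marker list and the 3 genes most correlated with the member of lowest adjusted p, of which 1 is not reported here. C130099E04Rik, Epha4, Limk1, Fyn, Prrx1 and the markers below the floor were named after their values were seen. Members and lists were chosen with earlier results of these data known. Alternatives were the block, leaving out each array, other filters, quantile normalisation, background subtraction, no trend and array weights. Leaving out preparation 3 was added after seeing the data. The deposited arrays were already nearly equal in distribution, so quantile normalisation could change almost nothing (484 probes called again) and is no separate check. The number of arrays limits the precision (median standard error 0.11 on the log2 scale).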

Additional observations from a re-analysis of the deposited data

How the results depend on the processing

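The 12 tested member probes were refitted under up to 14 alternatives. The count of member probes higher in spinal cord OPC at an adjusted p under 0.05 was 0 in every one, and the count lower was 1 with the preparation as a replicate block (Efnb1, log2 fold change -0.34), 2 with array weights (Ephb1 at -0.51 and Efnb1 at -0.41) and 0 to 2 without 1 array. Without 1 array Ephb1 ranged from -0.54 to -0.27 and Efnb1 from -0.43 to -0.29, and both passed only without cerebrum replicate 3. Without preparation 3 neither passed (adjusted p of 0.0765 for Ephb1 and 0.108 for Efnb1). Probes with changes near 0 turned sign without reaching the threshold. Without 1 array the ranges were -0.163 to 0.0374 for Ephb2 (ILMN_2622255), -0.0743 to 0.0933 (ILMN_1240431), -0.074 to 0.0217 (ILMN_1220911), -0.0586 to 0.105 (ILMN_2688515), -0.125 to 0.0042 for Ephb3, -0.20 to 0.12 for Efnb2 and -0.126 to 0.0156 for Efnb3. With array weights ILMN_1240431 was at -0.0068 and ILMN_2688515 at 0.0805, without preparation 3 ILMN_1240431 was at -0.0585, and after background subtraction ILMN_2688515 was at 0.0217 and Efnb2 at 0.047. The requirement of a signal above the floor on all arrays removed 5 of the 12 probes. All called probes numbered 484, 1068 with the replicate block, 1615 with array weights and 285 to 899 without 1 array (genes 331, 711, 978 and 196 to 574). The 899 were those without cerebrum replicate 3, so each setting that called a member probe also called more of all probes. Pathway genes that rose numbered 5, 9 with the block, 12 with array weights, 4 with a signal above the floor required on all arrays (Epha7 is then not tested) and 5 to 7 without 1 array. Those that fell numbered 1, 5 with the block, 5 with array weights, 2 without preparation 3 and 1 to 3 without 1 array. Efna5, Pdzrn3, Mmp2, Lmtk2, Grb10 and Epha7 kept direction and call in each alternative in which they were tested. Except in the fit with no filter on dim probes, Epha7 entered only through the spinal cord arrays, where it is high. The cause of the shifts between settings was not tested.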
